A study of Homo sapiens with 8 samples.

Results

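The lysosomal hydrolase and acidification genes described here are 38 listed human genes of 58735 in the count tables. They were taken by name, through the Ensembl gene IDs and GENCODE release 29 symbols, from a list whose rule uses no measured value. The members and the other lists were, however, chosen with earlier results of these data known. The list holds 26 acid hydrolases and their activators (9 proteases, 12 glycosidases or sulfatases and 5 lipid hydrolases or activators), 4 lysosomal membrane proteins, 4 proton pump genes and 4 regulators or autophagy genes. RNA of MOLM-13, a suspension cell line established from acute myeloid leukemia, was sequenced in bulk. The libraries used are the second parental (untreated) library and 1 library each of cells carried through 1, 3 and 5 courses with the vehicle alone, DMSO at 1%. Per the series' design text, controls were made alongside cells given busulfan, a bifunctional alkylating drug, for 6 h per course at 25 to 200 µM. The 3 busulfan libraries and the first parental library are not analysed here. All 4 libraries come from the same cell line; parental cells were passaged up to 20 times per the labels, which state no passage number for the DMSO cells. Passage number, time in culture and DMSO course therefore cannot be told apart.

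Lysosomes are acidic organelles that break down proteins, glycans and lipids delivered by endocytosis and autophagy. Their soluble hydrolases are made in the endoplasmic reticulum, tagged with mannose 6-phosphate and sorted to the organelle. The interior is kept acid by the V-ATPase, a rotary pump whose V1 sector splits ATP in the cytosol and whose V0 sector carries protons through the membrane. The related transcription factors TFEB and TFE3 bind an E-box-containing motif in many lysosomal promoters and are held in the cytosol by mTORC1, the nutrient-sensing kinase complex on the lysosomal surface. Myeloid cells are rich in lysosomal proteases, which they use to digest ingested material and to mature granule enzymes.

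By the median over the whole list, members differed between libraries about as much as other genes did. None of the 37 members that could be tested passed edgeR's quasi-likelihood test at an adjusted p under 0.05 for DMSO against parental, where 0% of 18612 genes passed, nor for a slope over 0, 1, 3 and 5 courses, where 0% passed. The median ratio of a member's highest to its lowest library was 1.52, and over the 10710 genes that averaged 5 CPM or more it was also 1.52. Individual members differed in size and direction. ARSB, CTSA, ASAH1 and SQSTM1 spanned at least 2-fold across the libraries. These 4 of 37 members were a smaller share than the 21.4% of those 10710 genes. CPM is a gene's count scaled to a common library size, with TMM scaling. The 38th member, NEU1, is listed at 0 in every library.

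The libraries held 44795976 to 56825811 gene counts. With 1 library per course, a comparison of single libraries has no replicate check: the 95% intervals below are exact binomial intervals on log2 ratios and cover counting error only. The labels do not describe these libraries as repeat cultures of one state. The p-values therefore speak only of the spread among the 4 libraries, and an exact permutation of 1 library against 3 could not go below 0.25. In the DMSO course 5 library 21.33% of reads aligned to several places, against 13.86% to 15.39% in the others, and genes of the mitochondrial genome took 9.22% of gene counts against 13.57% to 15.11%. All 8 markers fixed for MOLM-13, among them CD33, FLT3 and MPO, were detected, with a summed level of 2230 CPM in the parental library and 1962 to 3162 CPM in the DMSO libraries. Single markers varied more than this sum shows. Against parental, 5 of the 8 were above and 3 below in course 1, and 2 above and 6 below in course 5. All 8 were lower in course 5 than in course 3. MPO had log2 ratios to parental of 0.76, 0.42 and -0.71 in courses 1, 3 and 5. For MEIS1 they were -0.50, -1.08 and -1.17. In bulk RNA, fewer cells of a type and less RNA per cell cannot be told apart.

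The promoters are shown first because TFEB and TFE3 are known for the palindrome in them. RefSeq start-site windows (GRCh38.p14, 250 bases before to 50 after the start) matched 27 of the 38 members; ARSA, ASAH1, ATP6V1A, ATP6V1H, CTSB, CTSS, HEXA, LAMP2, MANBA, NAGLU and PSAP were unmatched. The E-box CACGTG lay in 8 of the 27 windows (29.6%), against 12.6% of 10662 windows of genes that passed the count filter and 8.77% of all 27305. Its extension TCACGTGA lay in 5 (18.5%), against 2.22% and 1.18%. TCACGTGA with a G before it and a C after it lay in 2 (7.41%), against 0.91% and 0.421%. All these motifs read the same on both strands, and each longer one contains the shorter, so the counts overlap. The windows of 30 bases below come from the measured members with any of these motifs, 5′ to 3′ on the gene's strand. The longest of these motifs at each site is in capitals, and longer palindromes were not searched for. Not printed are a further TCACGTGA that spans the LAMP1 start site, CACGTG alone at 192, 176, 159 and 142 bases before that start, and CACGTG alone at 42 bases before the CTSA start. NEU1, whose window also held CACGTG, had no counts.
ARSB, chr5:78986101-78986130, minus strand: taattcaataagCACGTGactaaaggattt
CTSD, chr11:1763957-1763986, minus strand: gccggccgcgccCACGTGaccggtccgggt
LAMP1, chr13:113297199-113297228, plus strand: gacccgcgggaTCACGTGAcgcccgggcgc
ATP6V0D1, chr16:67481199-67481228, minus strand: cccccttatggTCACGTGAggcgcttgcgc
GAA, chr17:80101493-80101522, plus strand: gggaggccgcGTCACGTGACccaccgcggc
GAA, chr17:80101538-80101567, plus strand: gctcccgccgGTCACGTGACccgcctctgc
MCOLN1, chr19:7522571-7522600, plus strand: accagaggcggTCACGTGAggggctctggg
MCOLN1, chr19:7522598-7522627, plus strand: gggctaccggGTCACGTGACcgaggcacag
CTSA, chr20:45891298-45891327, plus strand: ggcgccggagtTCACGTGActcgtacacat
The 7 measured genes shown did not share a pattern across the DMSO courses. From course 1 to course 5 the log2 ratio was 1.75 for ARSB, 0.96 for LAMP1 and 0.84 for ATP6V0D1. It was -0.03 for MCOLN1, -0.64 for GAA, -0.73 for CTSD and -1.33 for CTSA, so genes with the same palindrome lay at both ends of the list. A match of letters is a description of the window and says nothing of which factor was bound.

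**Figure D1:**
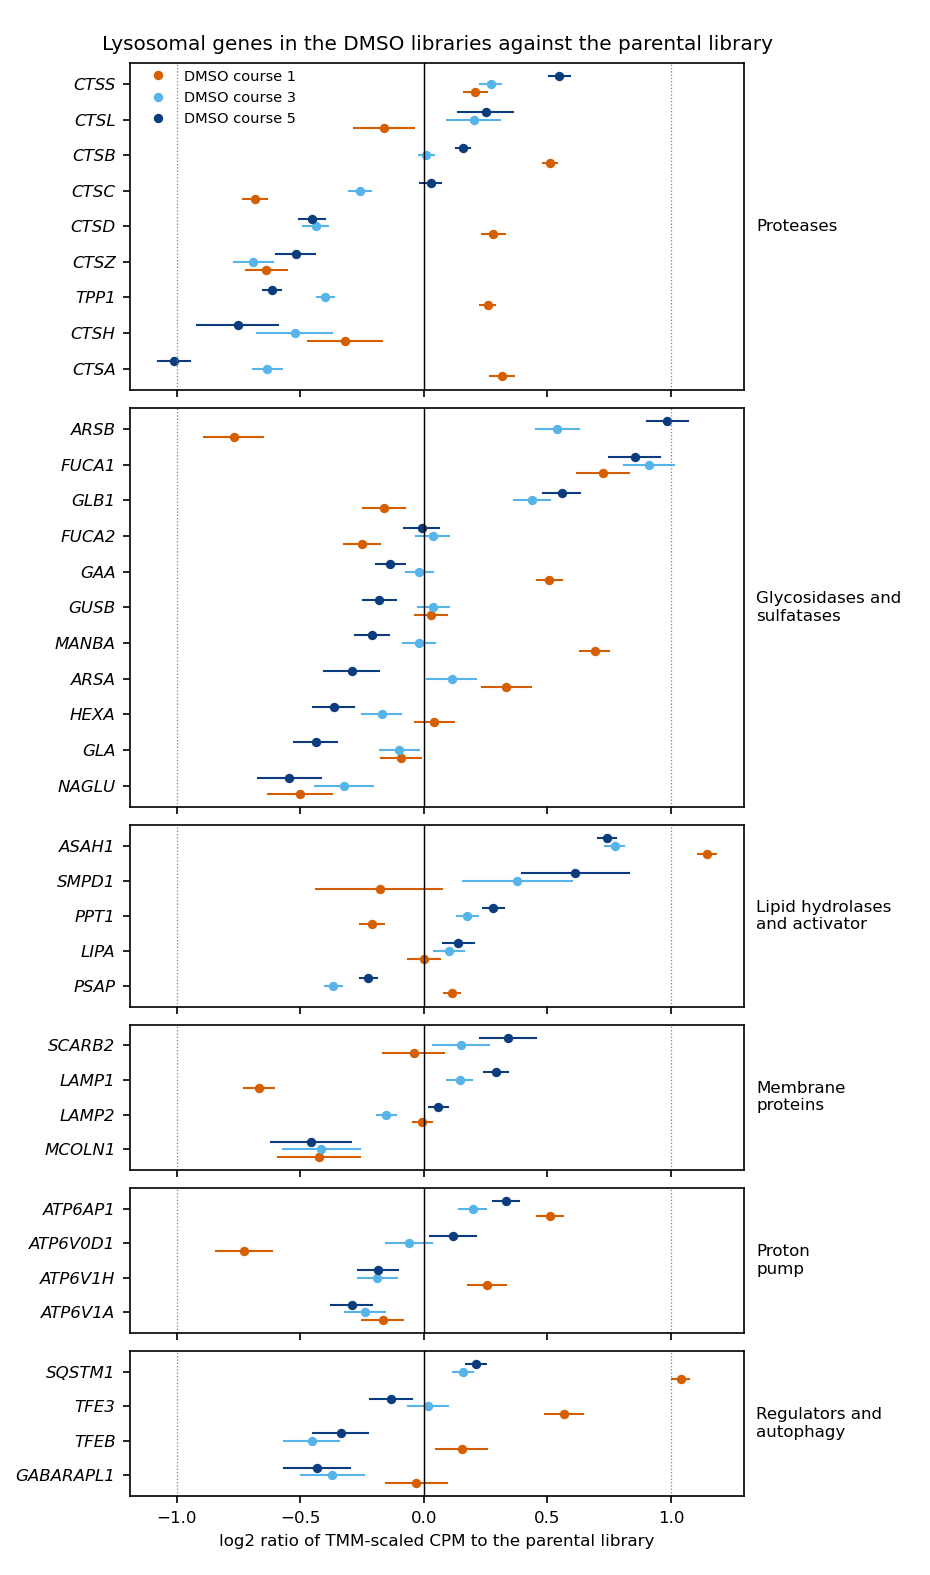
Log2 ratio of TMM-scaled CPM in each DMSO library to the parental library (x axis) for the 37 detected members, grouped by role (rows); points are single libraries, bars are exact binomial 95% intervals for counting error, and dotted lines mark 2-fold. Most points lie within 2-fold, ASAH1 and SQSTM1 pass it in course 1 and CTSA in course 5.

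Among the proteases, CTSA and TPP1 were lower in the late courses and higher in course 1 than in the parental library. CTSA (ENSG00000064601) encodes cathepsin A, a serine carboxypeptidase that also protects beta-galactosidase and neuraminidase in a complex. It measured 116 CPM in parental cells and 145, 75.0 and 57.8 CPM after DMSO courses 1, 3 and 5. The order was course 1 above parental above course 3 above course 5, and no neighbours in it overlapped in their counting intervals. Against the parental library the log2 ratio was 0.32 (0.27 to 0.37) in course 1, -0.63 (-0.69 to -0.58) in course 3 and -1.01 (-1.08 to -0.95) in course 5. Its slope was -0.25 log2 per course (SE 0.07), with an adjusted p of 0.218 in edgeR. In DESeq2's Wald test the same slope had an adjusted p of 0.0402, and CTSA was the only member called there, 2.7% of the 37 beside 4.82% of the genes with an adjusted p. DESeq2 called no member for DMSO against parental, beside 1.2% of such genes.

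TPP1, a tripeptidyl peptidase whose loss causes a childhood neuronal ceroid lipofuscinosis, had the same order. Its levels were 311 CPM in the parental library, 372 in course 1, 236 in course 3 and 203 in course 5, with log2 ratios to parental of 0.26, -0.40 and -0.61. CTSH, an aminopeptidase of the papain family, was highest in the parental library at 16.6 CPM, followed by 13.3, 11.5 and 9.83 CPM in courses 1, 3 and 5. Its log2 ratio to parental reached -0.75 (-0.92 to -0.59) in course 5. Slopes were -0.16 log2 per course (SE 0.05) for TPP1 and -0.14 (SE 0.06) for CTSH, with adjusted p of 0.273 and 0.316 in edgeR.

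The other 6 proteases differed in their order. CTSD, the main aspartic protease, measured 135 and 164 CPM in the parental and course 1 libraries and 99.7 and 98.8 in courses 3 and 5. It had the order of CTSA and TPP1 except that courses 3 and 5 could not be told apart beyond counting error. The log2 ratio of course 5 to course 3 was -0.01 (-0.07 to 0.05). CTSC, which activates granule serine proteases, was lowest in course 1 at 110 CPM and stood at 176, 148 and 180 CPM in the parental library and courses 3 and 5. CTSZ, a carboxypeptidase, was highest in the parental library at 64.5 CPM and lay between 40.0 and 45.0 CPM in the DMSO libraries. CTSS, used in antigen processing, was highest in course 5 at 211 CPM against 144 in the parental library. CTSB peaked in course 1 at 479 CPM, and CTSL spanned 1.33-fold. Over the 9 proteases the median log2 ratio to parental was 0.21, -0.40 and -0.45 in courses 1, 3 and 5, against 0.02, 0.01 and 0.03 over all genes; in course 5, 4 of the 9 were above parental and 5 below. The 11 detected glycosidases and sulfatases had medians of 0.03, 0.04 and -0.18, and the 5 lipid genes 0.00, 0.18 and 0.28.

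**Figure D2:**
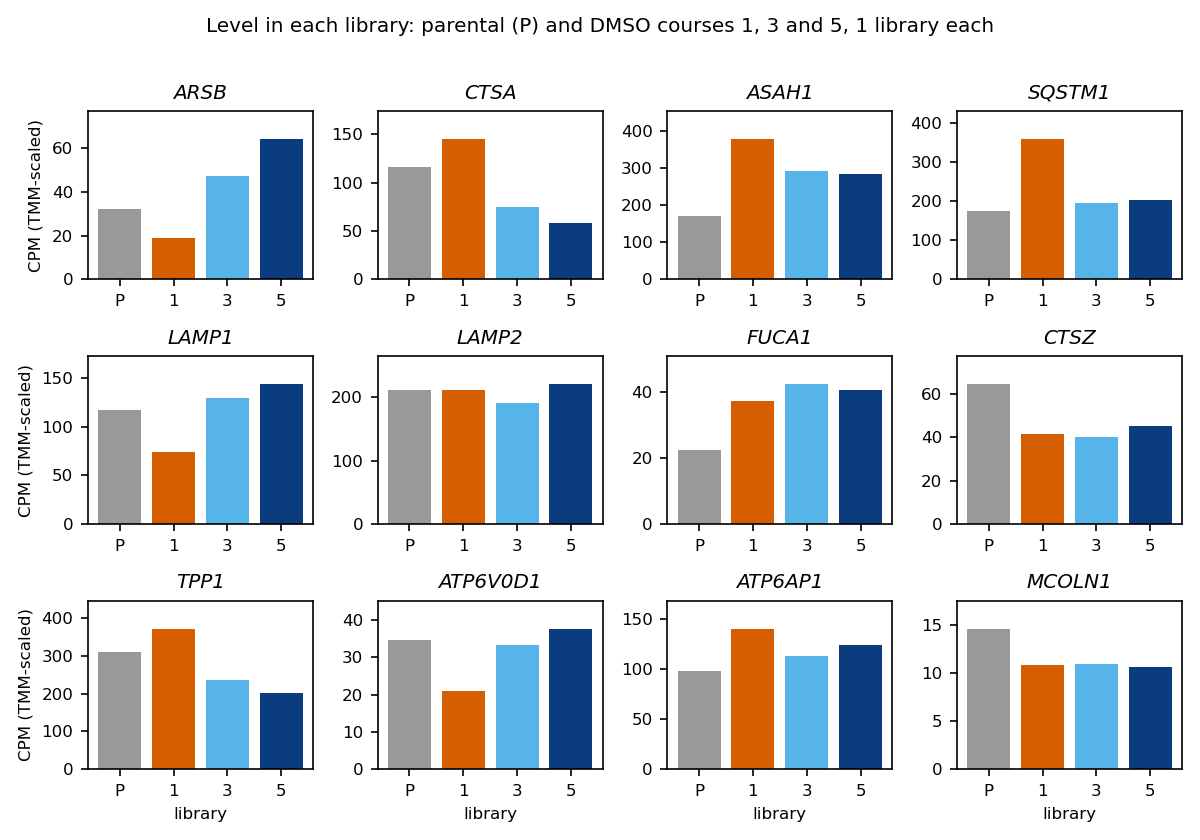
TMM-scaled CPM (y axis, from 0, own scale per panel) of 12 members in the parental library (P) and DMSO courses 1, 3 and 5 (x axis), each bar 1 library with no error bar. ARSB is lowest in course 1 at 19.0 CPM and highest in course 5 at 64.0, CTSA is highest in course 1 and lowest in course 5, and LAMP2 is nearly level.

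Among the glycosidases and sulfatases ARSB had the widest span of all members. ARSB (ENSG00000113273) encodes arylsulfatase B, which removes sulfate from dermatan and chondroitin sulfate and is deficient in mucopolysaccharidosis type VI. It measured 32.3 CPM in the parental library, 19.0 in course 1, 47.0 in course 3 and 64.0 in course 5. Course 1 was the low library and course 5 the high one, a ratio of 3.37. The log2 ratio to parental was -0.77 (-0.89 to -0.65), 0.54 (0.45 to 0.63) and 0.99 (0.90 to 1.07) in courses 1, 3 and 5, and course 5 stood 1.75 (1.64 to 1.87) above course 1. The slope was 0.26 log2 per course (SE 0.09), with an adjusted p of 0.28 in edgeR.

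FUCA1, the tissue alpha-fucosidase, was higher in each DMSO library than in the parental one. It measured 22.5 CPM in the parental library and 37.2, 42.3 and 40.7 CPM in courses 1, 3 and 5. The pooled log2 fold change was 0.83 (SE 0.23), with an adjusted p of 0.73 in edgeR, the smallest of the members in that comparison. MANBA, the beta-mannosidase, peaked in course 1 at 121 CPM and measured 74.8 CPM in the parental library, 73.8 in course 3 and 64.7 in course 5. GLB1, the beta-galactosidase that cathepsin A protects, was low in course 1 and high in course 5: it measured 48.2 CPM in the parental library, 43.1 in course 1, 65.4 in course 3 and 70.9 in course 5.

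GAA, the acid alpha-glucosidase that degrades lysosomal glycogen, measured 101 CPM in the parental library, 144 in course 1, 100.1 in course 3 and 92.4 in course 5. NAGLU, which acts on heparan sulfate, was highest in the parental library at 24.6 CPM and measured 16.9 to 19.7 CPM in the DMSO libraries. ARSA, the sulfatase of sulfatide breakdown, ranged from 24.1 CPM in course 5 to 37.1 in course 1. GLA, GUSB, HEXA and FUCA2, enzymes for alpha-galactose, glucuronic acid, ganglioside and fucose residues, spanned 1.16-fold (GUSB) to 1.35-fold (GLA). GUSB has many partial copies in the genome, so its level is uncertain. NEU1, the sialidase of the cathepsin A complex, had 0 counts in all 4 libraries, which allows up to 3 counts in each. Of the 100 protein-coding genes within 1 Mb of NEU1 on chromosome 6, 88 (88%) were also at 0, against 22.6% of all 19951 protein-coding genes, so the 0 is given as listed and not as absence of the transcript.

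Among the 5 genes of lipid breakdown, ASAH1 had the largest difference. ASAH1 (ENSG00000104763) encodes acid ceramidase, which splits ceramide into sphingosine and fatty acid. It measured 171 CPM in the parental library, 378 in course 1, 291 in course 3 and 285 in course 5. Every DMSO library was above the parental one, with log2 ratios of 1.15 (1.11 to 1.18), 0.77 (0.73 to 0.81) and 0.74 (0.70 to 0.78). The pooled log2 fold change was 0.90 (SE 0.28), with an adjusted p of 0.803 in edgeR. SMPD1, the acid sphingomyelinase that makes ceramide, had the lowest counts of the detected members, 211 to 386 per library, and measured 5.54, 4.90, 7.21 and 8.47 CPM in the parental library and courses 1, 3 and 5. Course 1 could not be told from the parental library at this depth, with a log2 ratio of -0.18 (-0.44 to 0.08). PPT1, a thioesterase that removes fatty acids from proteins, measured 151, 131, 171 and 184 CPM in the same order. LIPA, the acid lipase for cholesteryl esters, spanned 1.10-fold, the narrowest of all members. PSAP, the precursor of the saposin activators, measured 307 and 332 CPM in the parental and course 1 libraries and 238 and 262 in courses 3 and 5.

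The membrane proteins were lower than or near the parental level in course 1. LAMP1, a heavily glycosylated lining protein and common lysosome marker, measured 117 CPM in the parental library, 73.7 in course 1, 129 in course 3 and 144 in course 5. Course 1 was the low library, and course 5 stood 0.96 (0.90 to 1.02) above it on the log2 scale. Its relative LAMP2, a receptor for chaperone-mediated autophagy in one isoform, measured 212, 211, 191 and 221 CPM in the parental library and courses 1, 3 and 5, a span of 1.16-fold. The log2 ratio of course 1 to parental was -0.67 (-0.73 to -0.61) for LAMP1 and -0.01 (-0.05 to 0.03) for LAMP2. SCARB2, the membrane protein LIMP-2, measured 22.0, 21.3, 24.3 and 27.8 CPM. MCOLN1, the cation channel that releases lysosomal calcium, was highest in the parental library at 14.6 CPM and measured 10.6 to 10.9 CPM in the 3 DMSO libraries.

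The 4 pump members took different directions in course 1. ATP6V0D1, the V0 subunit that joins the rotor to V1, measured 34.7 CPM in the parental library, 21.0 in course 1, 33.3 in course 3 and 37.7 in course 5. Course 1 was low at a log2 ratio of -0.73 (-0.84 to -0.61), and course 3 could not be told from the parental library beyond counting error, at -0.06 (-0.15 to 0.03). ATP6AP1, an accessory subunit needed for pump assembly, was lowest in the parental library at 98.3 CPM and measured 140, 113 and 124 CPM in the DMSO libraries. ATP6V1H, a regulatory V1 subunit, measured 50.7, 60.5, 44.5 and 44.6 CPM in the parental library and courses 1, 3 and 5. ATP6V1A, the catalytic V1 subunit, measured 51.6, 46.0, 43.8 and 42.2 CPM in that order.

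The wider pump was described from a list of 23 other subunit and assembly genes, of which 21 passed the count filter, 2 (ATP6V1B1 and ATP6V1G2) were listed at 0 and none passed either test. TCIRG1, the a3 isoform of the membrane subunit a, measured 357 CPM in the parental library, 809 in course 1, 298 in course 3 and 170 in course 5. Course 1 was the high library and course 5 the low one, with a log2 ratio of -2.25 (-2.29 to -2.22) between them. ATP6V0A2, the a2 isoform, had the opposite order, at 38.1, 29.1, 59.8 and 62.4 CPM. Per transcript length, TCIRG1 made up 86.3% of the a-subunit transcripts in the parental library (a share of TPM over TCIRG1, ATP6V0A1 and ATP6V0A2), 91.1% in course 1, 83% in course 3 and 74.6% in course 5. The a1 isoform ATP6V0A1 took 10.8%, 7.86%, 11.7% and 16.6%, and ATP6V0A2 took 2.94%, 1.04%, 5.32% and 8.75%. TCIRG1 remained the leading isoform in all 4 libraries. ATP6V1C2, an alternative C subunit, had the order of TCIRG1, at 21.8, 33.0, 18.2 and 10.1 CPM. Over the 22 pump and assembly genes averaging 5 CPM or more, members included, the median log2 ratio to parental was 0.15, -0.08 and 0.06 in courses 1, 3 and 5. ATP6V0C, the proteolipid of the rotor ring, has close copies in the genome and its low level is uncertain.

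**Figure D3:**
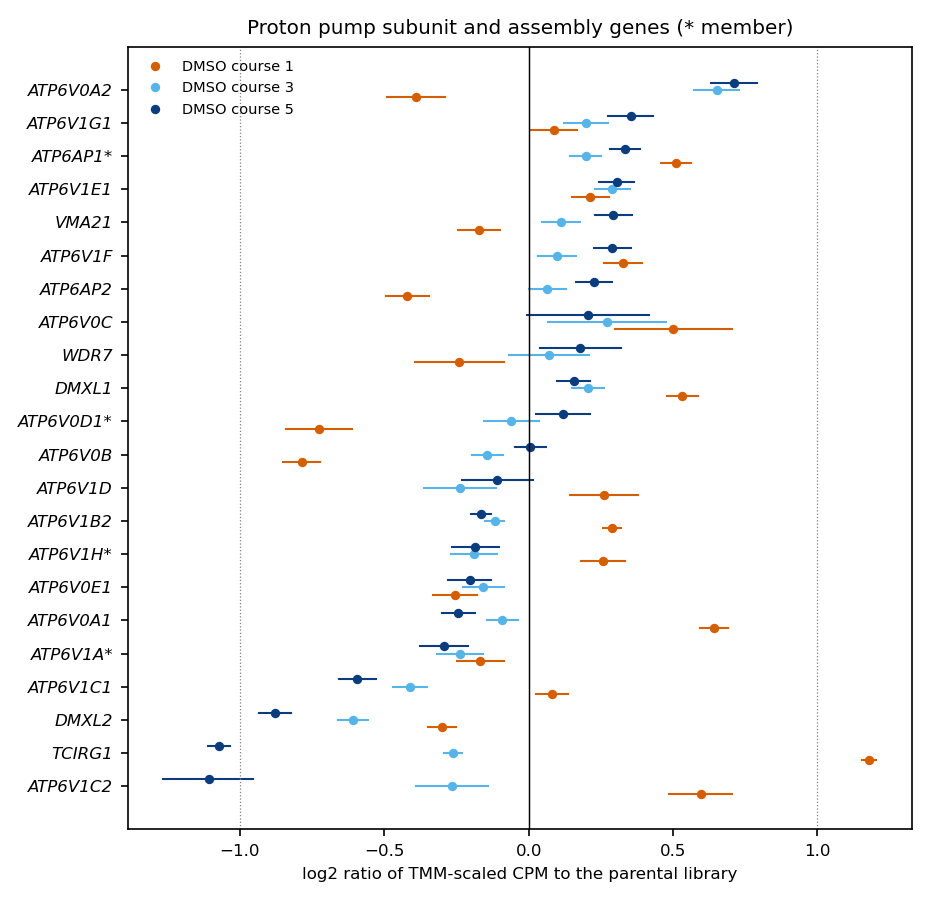
Log2 ratio of TMM-scaled CPM in each DMSO library to the parental library (x axis) for the 22 proton pump subunit and assembly genes averaging 5 CPM or more (rows, members starred); bars are exact binomial 95% intervals and dotted lines mark 2-fold. TCIRG1 passes 2-fold above parental in course 1, TCIRG1 and ATP6V1C2 pass 2-fold below it in course 5, and the 4 members stay within 2-fold.

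The regulators and autophagy genes were lower in course 5 than in course 1, each of the 4, with a median log2 ratio of -0.59. TFEB measured 29.5 CPM in the parental library, 32.8 in course 1, 21.5 in course 3 and 23.4 in course 5. TFE3 measured 45.1, 66.8, 45.6 and 41.1 CPM in the same order, so course 1 was its high library. SQSTM1 (ENSG00000161011), the autophagy adaptor p62 that carries ubiquitinated cargo, measured 175 CPM in the parental library, 359 in course 1, 195 in course 3 and 203 in course 5. Only course 1 reached 2-fold above the parental library, at a log2 ratio of 1.04 (1.00 to 1.07). GABARAPL1, an ATG8-family protein of the autophagosome membrane, measured 21.4, 21.0, 16.6 and 15.9 CPM. None of the 4 passed a test; their smallest adjusted p in edgeR was 0.97 for DMSO against parental and 0.415 for the slope.

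The genes that act on TFEB through mTORC1 were described from a list of 21, all of which passed the count filter and none of which passed either test. MTOR, the kinase itself, was lowest in course 1, at 25.6 CPM against 68.9 in the parental library and 69.3 and 85.5 in courses 3 and 5. MLST8, its partner subunit, measured 70.3, 39.2, 105 and 120 CPM in the parental library and courses 1, 3 and 5. RRAGD, a Rag GTPase that recruits mTORC1 to the lysosome and a known TFEB target, was lowest in the parental library at 17.2 CPM and measured 53.9, 44.0 and 44.0 CPM in the DMSO libraries. FLCN, the folliculin that activates RRAGC and RRAGD, was chosen after its values were seen: it measured 51.4, 114, 52.8 and 52.1 CPM, high in course 1 alone.

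In the autophagy list 31 of 31 genes passed the filter and none passed either test. The widest spans belonged to BNIP3 and BNIP3L, mitophagy receptors that are also hypoxia targets, and to OPTN, an adaptor of selective autophagy. BNIP3 measured 96.3 CPM in the parental library, 267 in course 1, 43.2 in course 3 and 23.6 in course 5. BNIP3L had the same order, at 106, 224, 61.5 and 45.0 CPM. OPTN was level between the parental and course 1 libraries, at 33.4 and 33.0 CPM, and measured 13.9 and 9.48 CPM in courses 3 and 5.

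**Figure D4:**
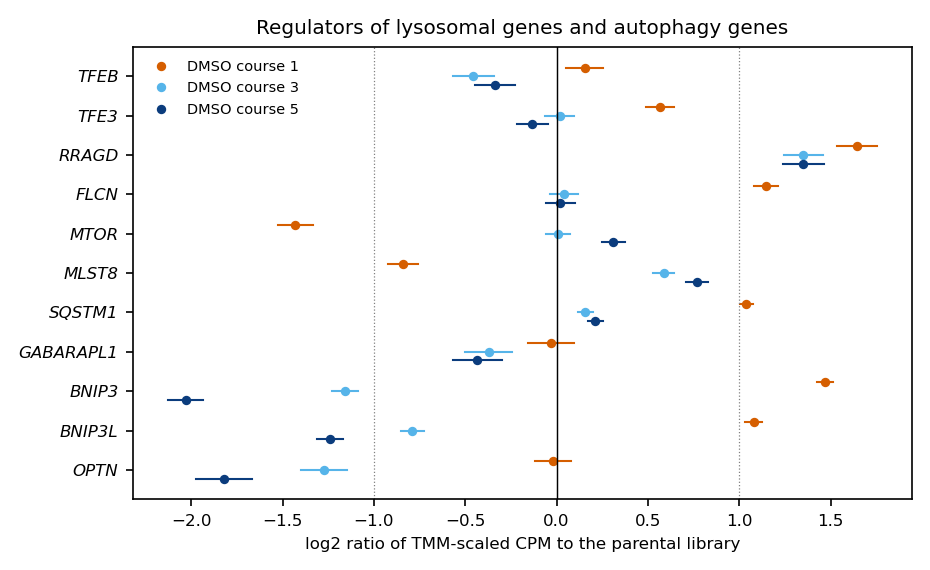
Log2 ratio of TMM-scaled CPM in each DMSO library to the parental library (x axis) for the 4 regulator and autophagy members and 7 genes of their pathways (rows); bars are exact binomial 95% intervals and dotted lines mark 2-fold. Course 1 stands apart for MTOR at -1.43 and FLCN at 1.15, and BNIP3 changes side from 1.47 in course 1 to -2.03 in course 5.

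Set by role, the 3 main groups differed little in their medians against the parental library. The 25 detected hydrolases had median log2 ratios of 0.03, 0.01 and -0.14 in courses 1, 3 and 5. The 4 membrane proteins had -0.23, -0.00 and 0.18, and the 4 pump members 0.04, -0.12 and -0.03. From course 1 to course 5 the medians were -0.21 for hydrolases (11 of 25 above 0), 0.22 for membrane proteins (3 of 4 above 0) and -0.15 for the pump (1 of 4 above 0), against 0.05 over all genes. The spread within the hydrolases, from -1.33 for CTSA to 1.75 for ARSB, was wider than the distance between any of these medians, and no role was tested against another. Scaling to total gene counts in place of TMM moved every course 1 ratio to parental by -0.11, which put the course 1 medians of hydrolases and pump at -0.087 and -0.070, below 0. Totals without mitochondrial genes moved every course 5 ratio to parental by -0.11 from its TMM value, and totals with them by -0.04.

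**Figure D5:**
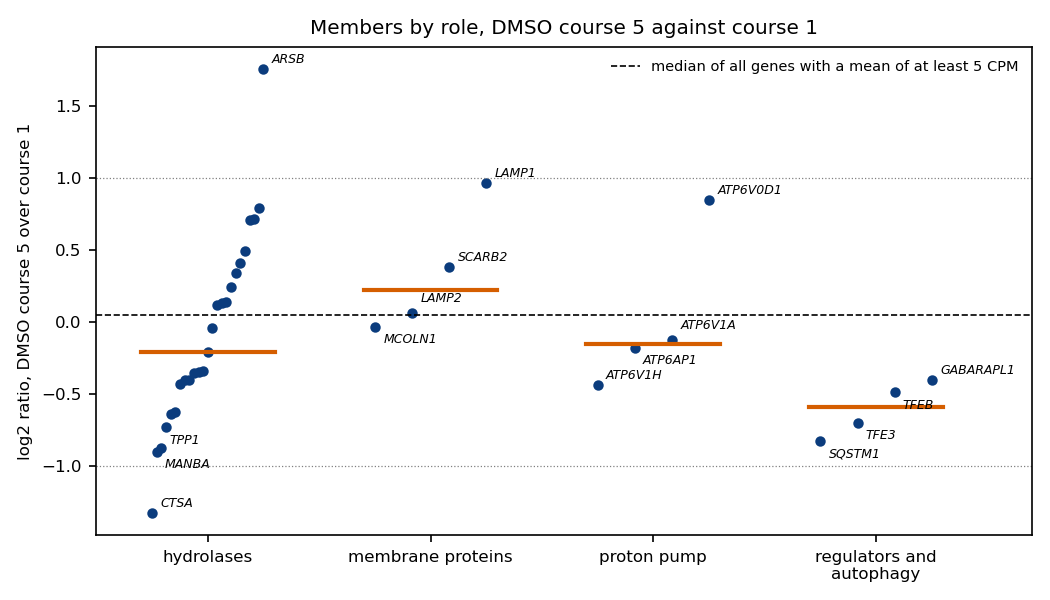
Log2 ratio of TMM-scaled CPM in DMSO course 5 to DMSO course 1 (y axis) for each of the 37 detected members, grouped by role (x axis); orange bars are medians, the dashed line is the median of all genes averaging 5 CPM or more, and dotted lines mark 2-fold. Hydrolases span from CTSA at -1.33 to ARSB at 1.75 around a median of -0.21, and all 4 regulators lie below 0.

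In each of the 6 pairs of libraries, 0 to 2 of 37 members were at least 2-fold apart. These shares were below those of all genes, but they rest on few members. The 6 pairs also reuse the same 4 libraries, so they are not separate observations. At 1.5-fold the shares of members and of all genes were closer, except between courses 3 and 5. At least 2-fold and beyond counting error, 2 of 37 members (5.41%) differed between course 1 and parental, both higher (ASAH1 and SQSTM1), beside 7.89% of 10710 genes. Between course 3 and parental it was 0 of 37, beside 4.58%, and between course 5 and parental 1 of 37 (CTSA, lower), beside 7.88%. From course 1 to course 3 it was 1 of 37 (ARSB, higher), beside 8.72%. From course 1 to course 5 it was 2 of 37 (ARSB higher, CTSA lower), beside 16.2%, and from course 3 to course 5 it was 0 of 37, beside 0.99%. ASAH1 was the only member past 2-fold in course 1 against parental when libraries were scaled to total gene counts. From course 1 to course 5 that scaling gave 3 members, 2 higher and 1 lower. CTSA in course 5 against parental was not past 2-fold with DESeq2's size factors. At 1.5-fold, 9 of 37 members (24.3%) differed between course 1 and parental beside 26.6% of genes, and 14 of 37 (37.8%) between courses 1 and 5 beside 38%. Between courses 1 and 3 it was 10 of 37 (27%) beside 25.8%, and between courses 3 and 5 it was 0 beside 5.07%. Between course 3 and parental 4 of 37 (10.8%) did beside 13.1%, and between course 5 and parental 7 of 37 (18.9%) did beside 23.2%.

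Before adjustment, 3 of 37 members (8.11%) had an edgeR p under 0.05 for DMSO against parental, beside 5.61% of all genes: FUCA1 and ASAH1 higher and CTSZ lower. For the slope it was 5 of 37 (13.5%), beside 15.8%: CTSA, TPP1 and CTSH lower with more courses, ARSB and GLB1 higher. After adjustment over all genes the smallest member p was 0.73 for DMSO against parental and 0.218 for the slope. For DMSO against parental, of the DMSO libraries only leaving out course 1 changed whether any member passed, and the cause was not tested. Without the course 1 library, edgeR set the single parental library against courses 3 and 5, with 1 residual degree of freedom. The residual spread then came from courses 3 and 5, whose median absolute log2 ratio over all genes was 0.16. The p-values of that fit therefore do not measure spread between repeat cultures. In it 4 of 37 members (10.8%) passed beside 8.59% of all genes. FUCA1 (log2 0.88), ASAH1 (0.76) and ARSB (0.78) were higher than in the parental library, and CTSA (-0.81) was lower. Without the course 1 library 7 of 37 members (18.9%) passed the slope test, beside 15.2% of genes. Without the parental library the slope over courses 1, 3 and 5 called 12 of 37 members (32.4%), beside 23.4% of genes: ARSB, ATP6V0D1, CTSC, GLB1 and LAMP1 rose, and CTSA, CTSD, GAA, MANBA, SQSTM1, TFE3 and TPP1 fell. Without course 3 or without course 5 no member passed, beside 0.137% and 0.168% of genes for DMSO against parental and 0.175% and 0.0271% for the slope. With no filter on low counts no member passed either test, beside 0.0454% and 0.461% of genes.

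Levels of different members can be compared only per transcript length. As TPM, with exon-union lengths from GENCODE release 29 that include exons of every annotated isoform, PSAP was the highest member in all 4 libraries, at 260, 263, 184 and 230 TPM in the parental library and courses 1, 3 and 5. TPP1, CTSB and CTSD followed in the parental library at 130, 124 and 119 TPM. SCARB2 was the lowest of the detected members in all 4 libraries, at 2.83 to 4.08 TPM. The length used for it was 19341 bases, the longest of the members, and its low rank depends on that length. In CPM, before length is counted, SCARB2 at 21.3 to 27.8 lay above SMPD1 at 4.90 to 8.47. ARSB stood at rank 34 in the parental library and rank 27 in course 5, and TPP1 went from rank 2 to rank 7.

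Among other genes of the lysosome the widest spans also ran in both directions. Of 26 other hydrolases 23 passed the count filter and none passed either test. The widest span was that of SGSH, the heparan N-sulfatase, at 5.26 CPM in the parental library, 16.1 in course 1, 2.23 in course 3 and 0.79 in course 5. CTSF, a papain-family protease, measured 19.8, 48.2, 21.0 and 13.1 CPM in the same order. AGA, which splits asparagine from glycans, was lowest in course 1 and highest in course 5, at 15.4, 8.31, 22.3 and 24.6 CPM. Their median log2 ratio to parental was 0.14, 0.19 and 0.26 over the 21 with a mean of at least 5 CPM.

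All 25 other membrane and transport proteins passed the filter and none passed either test. CLN3, a membrane protein mutated in a juvenile ceroid lipofuscinosis, measured 20.8, 43.0, 16.2 and 11.01 CPM in the parental library and courses 1, 3 and 5. OSTM1, the partner of the chloride exchanger CLCN7, measured 34.3, 24.9, 52.4 and 76.1 CPM, low in course 1 and high in course 5. TPCN1, an endolysosomal cation channel, was lowest in the parental library at 319 CPM and measured 729, 508 and 470 CPM in the DMSO libraries. Of the 10 genes of mannose 6-phosphate sorting all passed the filter and none passed either test. GNPTAB, the phosphotransferase that starts the tag, was lowest in course 1 at 13.0 CPM, against 25.3 in the parental library, 23.9 in course 3 and 26.7 in course 5. NAGPA, which uncovers the tag, was highest in the parental library at 17.6 CPM and measured 8.86, 11.6 and 9.61 CPM in the DMSO libraries. GGA2, an adaptor that carries mannose 6-phosphate receptors from the Golgi, measured 287, 436, 302 and 222 CPM.

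Markers of other myeloid and non-myeloid cells moved beside these values, and their part in the results was not tested. The summed level of 15 neutrophil granule genes was 440 CPM in the parental library and 163 to 190 CPM in the DMSO libraries, with MMP8, DEFA3, CEACAM8 and PGLYRP1 at 0. The 15 monocyte or macrophage markers summed to 793 CPM in the parental library and 852 to 1022 in the DMSO libraries, with none at 0 and 6 below 1 CPM throughout. The sum hides opposite directions: over the 7 of them averaging 5 CPM or more the median log2 ratio to parental was -0.10, -0.56 and -0.81 in courses 1, 3 and 5, with 4 of 7 below parental in each. CX3CR1 measured 13.3 CPM in the parental library and 1.23 in course 5, CSF1R 49.0 and 21.7, and VCAN 3.97 and 52.2. The 8 mast cell or basophil markers summed to 12.7 CPM in the parental library and 51.2 to 103 in the DMSO libraries, nearly all of it TPSB2, which has near-identical copies, with CPA3 and CMA1 at 0. The 11 lymphoid markers summed to 171 CPM and 233 to 280, with CD2 and MS4A1 at 0 and 6, these included, below 1 CPM throughout. Most of that sum was NCAM1 and NKG7, which differed in direction. NCAM1 measured 94.7, 130, 213 and 181 CPM in the parental library and courses 1, 3 and 5. NKG7 measured 64.8, 101, 65.1 and 51.6 CPM in that order. The 10 erythroid or megakaryocyte markers summed to 5.15 CPM and 3.05 to 8.68, with 5 at 0, among them PF4 and PPBP. The 10 epithelial or fibroblast markers summed to 44.8 CPM and 11.1 to 24.0, with KRT5, KRT19 and DCN at 0.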

How the data were processed

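The authors deposited read counts per Ensembl gene, 1 table per library, each with 5 summary rows, which were left out (24.57% to 29.81% of reads). Per the submitters' processing notes, hg19 was the build, with the tools FastQC (0.11.5), HTSeq (0.6p1) and TopHat2 (2.0.11). All 58735 IDs match GENCODE release 29, however, which is on GRCh38, and the build used for counting is therefore not certain. Counting was reverse-stranded as far as the deposited tables' names tell. Reads aligned to several places are in no gene. The members and lists were chosen with earlier results of these data known. Counts were analysed with edgeR 4.0.16 in R 4.3.3: TMM scaling, filterByExpr (minimum count 10, total 15), quasi-likelihood tests with Benjamini-Hochberg adjustment over 18612 genes and 2 residual degrees of freedom, the lone parental library being assumed to vary like the DMSO libraries. Single libraries were compared untested: at least 2-fold, mean at least 5 CPM, exact binomial 95% interval excluding 1. The code was tested on simulated data. DESeq2 1.42.0, limma 3.58.1, other scalings, filters and folds and leaving out each library were tried. Values per library are given for members at least 2-fold apart and the 3 widest per role. They are also given for the 3 widest genes of each other list except the marker lists. The marker lists are given as sums, with values for some of their genes. Further members are given in brief, as the account covers all 38. Some genes of the wider lists are not reported here.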

Additional observations from a re-analysis of the deposited data

Results flagged for a closer look

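The share of reads aligned to several places, which enter no gene's count, was above the parental library's 13.86% in each DMSO library, at 15.39% in course 1, 14.24% in course 3 and 21.33% in course 5. No group had the 4 or more libraries needed to look for a sample far from the others.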

How the results depend on the processing

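With other scalings, other filters or limma-voom, 0 members passed in either comparison, as in the fits reported. Over all genes, 13 passed for DMSO against parental and 132 for the slope with no filter on low counts, and 211 and 879 with DESeq2's Wald test, which called 1 member for the slope (CTSA) and 0 for DMSO against parental. Leaving out 1 library gave 25 to 1578 genes and 0 to 4 members for DMSO against parental, and 5 to 3642 genes and 0 to 12 members for the slope; the highest counts came without DMSO course 1 (1578 genes, 4 members) and without the parental library (3642 genes, 12 members). These fits have 1 residual degree of freedom, and beyond the fewer libraries the cause was not tested. At 1.5-fold in place of 2-fold, 9, 4 and 7 members differed between courses 1, 3 and 5 and parental, 10 between courses 1 and 3 and 14 between courses 1 and 5. With total gene counts 1 member was 2-fold apart in course 1 against parental, and 3 from course 1 to course 5 (2 higher, 1 lower). With DESeq2's size factors 0 were 2-fold apart in course 5 against parental.

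Scaling to total gene counts put the median log2 ratio of all members at -0.11 in course 1 and -0.10 in course 3 against parental, of hydrolases at -0.087 and -0.066 (and -0.14 from course 1 to 5), and in course 1 of membrane proteins at -0.35, pump members at -0.070 and regulators at 0.25. Totals without mitochondrial genes gave, for courses 1 and 5 against parental, -0.10 and -0.25 for all members, -0.073 and -0.25 for hydrolases, -0.33 and 0.061 for membrane proteins, -0.057 and -0.15 for the pump and 0.26 and -0.35 for regulators. These shifts follow from the library sizes alone. Over the 250 bases before the start only, the motif counts of the members (8, 5 and 2) were the same, and the shares of genes passing the filter were 11.2%, 1.99% and 0.807%. No paired analysis was possible because each course has 1 library and no replicate number is shared across the groups in a way that pairs them. Depth limited the low members most: the interval of SMPD1 in course 1 against parental ran from -0.44 to 0.08.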
